A study of Mus musculus with 18 samples.

Results

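Annexins are proteins that bind membrane phospholipids when calcium is present, and they take part in membrane repair, vesicle traffic and the surface activation of plasminogen. S100 proteins are small calcium sensors that work by binding other proteins, and several of them, S100a10 and S100a11 among them, bind the N-terminal tail of an annexin. Galectin 1 is a lectin that binds β-galactosides on the cell surface and in the matrix. Healthy hepatocytes are poor in Anxa2, S100a6 and Lgals1, which are abundant in bile duct, stromal and immune cells. The transcripts followed here are those of 5 annexins (Anxa1, Anxa2, Anxa3, Anxa5 and Anxa13), 4 S100 proteins (S100a4, S100a6, S100a10 and S100a11) and galectin 1 (Lgals1). These 10 genes were chosen by symbol out of 28442 genes in the deposited table, and all of them were found there.

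Livers of 6 mice and 12 advanced tumors from 11 mice were compared, and tumors 11 and 12 came from 1 mouse. All mice were males of the Alb-R26Met genotype, the offspring of R26stopMet mice on C57BL/6JRj and Alb-Cre mice on 129S2/SvPasOrlRj. They carry a mouse-human chimeric Met transgene in the Rosa26 locus, which Cre driven by the albumin promoter turns on, so the livers carry the active transgene too and differ from the tumors in that their mice had developed no tumor. Mice were 52 to 71 weeks old for livers and 49 to 72 weeks old for tumors, by the ages that the study lists. For tumors 3 and 10 the mouse number in the sample labels differs from that in the study's list. Both were matched by tumor number and tag. Sample names carry the tag E19 in 2 livers and 7 tumors and the tag E20 in 4 livers and 5 tumors, and what the tags stand for is not given.

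Values are TPM rounded to whole numbers, a share of all transcripts that allows for gene length. They add up to between 835144 and 884597 in livers and between 845356 and 907513 in tumors. TPM keep no read depth, so no counting error is given. Siglece, which takes 17.9% to 29.5% of the total in livers and 21.5% to 53.4% in 11 tumors, takes 82.9% in tumor 2. Its other genes are correspondingly low, and 8718 genes were above 0 there, against at least 11508 in every other sample. For this reason each sample's values were brought to a common scale with a TMM factor (trimmed mean of M values), and the result is called the scaled value. In tumor 2 a deposited value of 1 equals a scaled value of 5.16, so a low gene there is known only roughly. Liver 1 also stood apart, with the highest value of the 6 livers in 8 of the 10 genes, while tumor 2 was lowest or shared the lowest value among tumors in all 10. Results that rest on these samples are given with and without them. Met itself was higher in tumors by 2.22 on the log2 scale (limma, adjusted p = 3.07e-08), and transgene and mouse gene are not parted in the table. All 6 hepatocyte genes in the table were above 0 in all samples. Of these Apoa1 was called higher in tumors (0.91 on the log2 scale, limma, adjusted p = 0.0142), while the other 5 ran from -1.88 for Cps1 to 0.57 for Alb and did not pass (adjusted p from 0.105 to 0.840 in the same limma fit). In these bulk samples, fewer cells of a type and less RNA per cell cannot be told apart.

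Since Anxa2, S100a11, Anxa5 and S100a6 were all higher in tumors, the bases before their starts are shown first, to see what they share. RefSeq on GRCm38.p6 gave the 250 bases before the start for Anxa1, Anxa2, Anxa5, S100a4, S100a6 and S100a11, and no entry for Anxa3, Anxa13, S100a10 and Lgals1. The 4 sequences are given 5′ to 3′ on the gene's strand, in the order Anxa2 at chr9:69453433-69453682 (plus strand), S100a11 at chr3:93520246-93520495 (plus), Anxa5 at chr3:36475888-36476137 (minus) and S100a6 at chr3:90612644-90612893 (plus). Capitals mark matches to an AP-1 site (TGANTCA), a TEAD site (GGAATG), a GC box (GGGCGG) or a TATA box (TATAAA), searched on both strands.
Anxa2: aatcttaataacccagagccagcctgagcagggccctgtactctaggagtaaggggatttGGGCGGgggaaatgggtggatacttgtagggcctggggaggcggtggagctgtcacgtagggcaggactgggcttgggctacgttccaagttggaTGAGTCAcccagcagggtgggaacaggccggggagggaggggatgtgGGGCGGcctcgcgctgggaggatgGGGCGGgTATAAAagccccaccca
S100a11: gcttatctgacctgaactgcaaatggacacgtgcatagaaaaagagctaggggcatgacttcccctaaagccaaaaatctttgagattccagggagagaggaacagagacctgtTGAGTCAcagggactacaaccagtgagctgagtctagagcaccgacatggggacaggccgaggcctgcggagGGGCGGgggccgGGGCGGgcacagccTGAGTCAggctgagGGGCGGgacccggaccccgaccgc
Anxa5: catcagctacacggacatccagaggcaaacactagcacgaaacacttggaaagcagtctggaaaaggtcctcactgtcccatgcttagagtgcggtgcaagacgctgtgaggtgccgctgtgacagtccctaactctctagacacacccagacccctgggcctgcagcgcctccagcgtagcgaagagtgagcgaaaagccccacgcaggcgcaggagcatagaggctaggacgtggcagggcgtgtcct
S100a6: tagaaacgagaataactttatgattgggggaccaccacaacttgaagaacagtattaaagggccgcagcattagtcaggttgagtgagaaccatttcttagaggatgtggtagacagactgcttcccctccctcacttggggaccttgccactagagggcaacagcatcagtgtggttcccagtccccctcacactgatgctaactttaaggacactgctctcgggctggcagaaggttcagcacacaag

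Anxa2 holds 1 AP-1 match, 95 bases before its start, 3 GC boxes and a TATA box, of which the last GC box lies next to the TATA box without overlap. S100a11 holds 2 AP-1 matches, 136 and 38 bases before its start, and 3 GC boxes. Anxa5 and S100a6 hold none of the 4 motifs, so no motif is shared by all 4. Among 27025 promoters of the same length, 6.87% hold an AP-1 match, 12.6% a TEAD match, 32.9% a GC box and 12.97% a TATA box. A match describes the letters in this window and is no evidence of binding.

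Between tumors and livers, 5 of the 10 genes were higher in tumors and none was lower at a Benjamini-Hochberg adjusted p under 0.05 over all genes tested (0 by limma, also 0 at an unadjusted p under 0.05). Anxa2, S100a11, Anxa5 and Lgals1 differed most, at between 4.10 and 10.1 times the liver level on the fitted scale, and S100a6 followed. S100a10, the partner of Anxa2, was already high in livers and did not pass the threshold, nor did Anxa1 and Anxa3. The fit used limma on log2 of the scaled value plus 1, a scale that understates the changes of low genes, and left out genes that reached a scaled value of 1 in fewer than 6 samples. It tested 8 of the 10 genes, leaving out Anxa13 and S100a4. S100a6, among the 5 called, passed this filter mainly through tumors. Of all 11708 genes tested, 9.70% were called higher and 9.28% lower in tumors. Leaving out tumor 2 gave 7 of 9 genes tested (14.6% of all genes), leaving out liver 1 gave 6 of 8 (11.2%), leaving out both gave 8 of 9 (16.3%) and weighting samples by quality gave 8 of 8 (19.9%), all higher in tumors. In the fits of 9 genes the added gene is S100a4, which could pass the filter only through tumors. It is among the 7 called without tumor 2. The median log2 fold change was 1.81 over the 8 genes and -0.07 over all genes tested. Samples of 1 group come from separate mice except for tumors 11 and 12.

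Anxa2, which forms a tetramer with S100a10 at the cell surface and there assembles plasminogen with its activator, lies on chromosome 9 from 69453683 to 69491792. Its scaled value ran from 2.80 to 17.7 in livers, with a median of 5.40, and from 20.6 to 191 in tumors, with a median of 56.9. Liver 1 was the highest liver and tumor 2 the lowest tumor, and the groups did not overlap. On the log2 scale Anxa2 was 3.20 higher in tumors (standard error 0.38, limma, adjusted p = 4.29e-06). Leaving out liver 1 and tumor 2 gave 3.66 (limma, adjusted p = 2.22e-07).

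S100a11, a dimer that binds annexin A1 and annexin A2, had the largest log2 fold change of the 8 genes tested. It lies on chromosome 3 from 93520496 to 93526288. In livers the scaled value ran from 3.73 to 14.02 around a median of 5.01, and in tumors from 20.6 to 130 around a median of 66.6. Again liver 1 was the highest liver, tumor 2 the lowest tumor and tumor 10 the highest one, with no overlap between groups. The log2 fold change was 3.34 (standard error 0.32, limma, adjusted p = 2.56e-07).

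Anxa5, known for binding phosphatidylserine on dying cells, lies on chromosome 3 from 36448923 to 36475887. It had the highest mean of the 10 genes in tumors, with a scaled value of 81.0 ± 35.2 (SD, n = 12) against 15.8 ± 4.67 (SD, n = 6) in livers. Livers ran from 11.2 to 22.9 with a median of 14.3, and tumors from 36.1 to 152 with a median of 73.7. Tumors 11 and 5 were highest, so the order of tumors was not that of Anxa2, in which tumor 10 led. The log2 fold change was 2.21 (standard error 0.26, limma, adjusted p = 3.05e-06).

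Lgals1, on chromosome 15 from 78926725 to 78930465, was at 5.60 to 11.1 in livers (median 9.73) and at 15.5 to 81.2 in tumors (median 38.8). Here too every tumor lay above every liver, with tumors 2 and 3 nearest to the livers and tumor 10 farthest. The log2 fold change was 2.03 (standard error 0.31, limma, adjusted p = 7.61e-05). In Anxa2, S100a11, Anxa5 and Lgals1 the exact permutation test over 18564 splits gave a two-sided p of 5.39e-05, the smallest it can give. Every tumor lay above every liver in 2.16% of all genes tested. This separation holds on the scaled values and not on the deposited ones, where tumor 2 is at 4 for Anxa2, 7 for Anxa5, 4 for S100a11 and 3 for Lgals1. Without scaling, the log2 fold changes of these 4 genes were between 1.87 and 3.17 and all 4 were still called by limma, with adjusted p from 3.49e-05 to 0.00531.

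**Figure D1:**
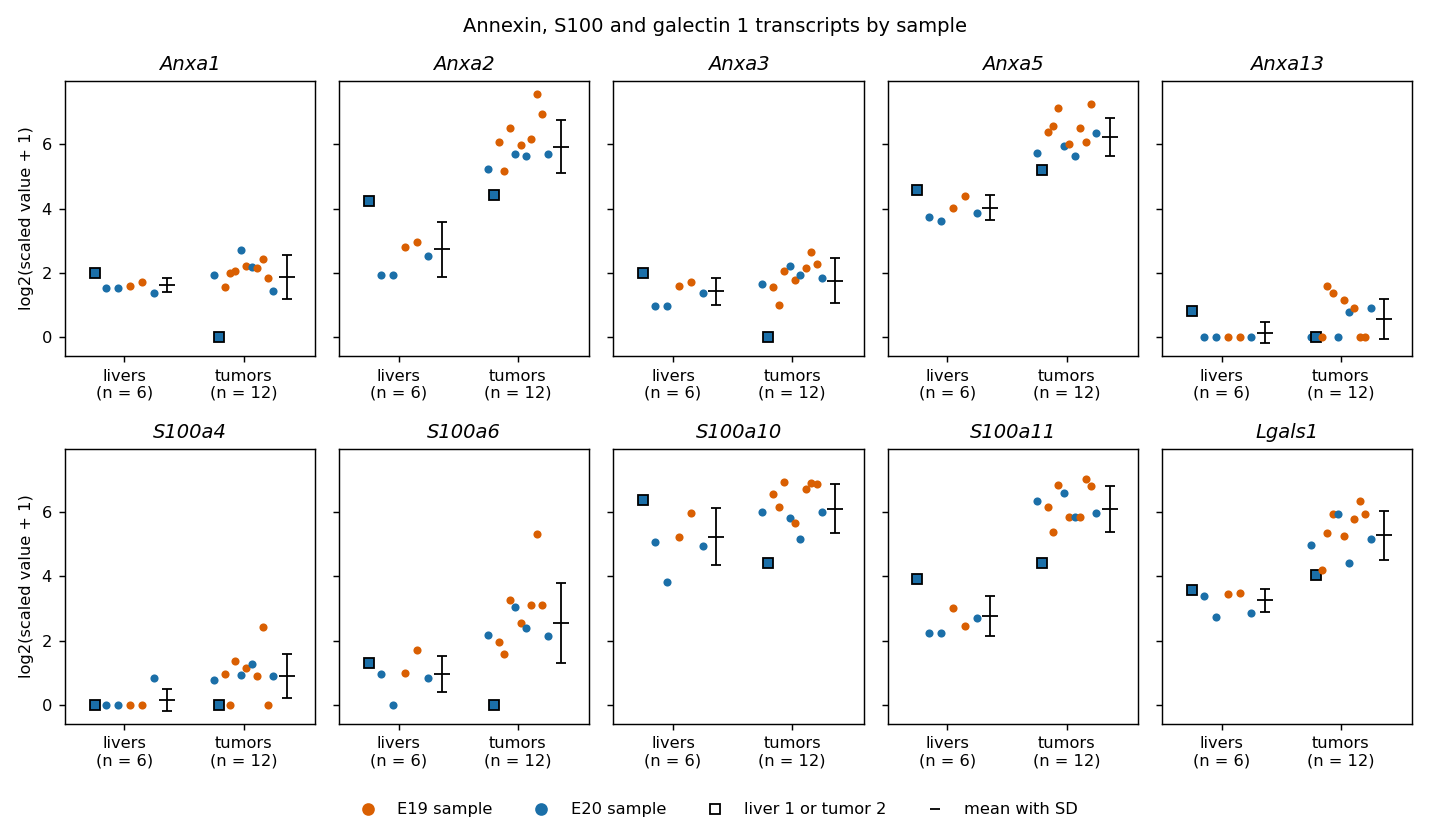
Each panel shows 1 gene, with log2 of the scaled value plus 1 on the vertical axis, 1 point per sample (colored by tag) and the mean with its SD beside each group of 6 livers or 12 tumors. In Anxa2, Anxa5, S100a11 and Lgals1 all 12 tumors lie above all 6 livers, while Anxa1, Anxa3 and S100a10 overlap, and Anxa13 and S100a4 lie at or near 0. Squares mark liver 1, high among livers, and tumor 2, low among tumors.

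S100a6 (calcyclin), whose gene lies on chromosome 3 from 90612894 to 90614414, was near the floor of the table in livers. Livers ran from 0 to 2.24 with a median of 0.973, and tumors from 0 to 39.3 with a median of 4.52. In tumors, 10 of 12 exceeded every liver, tumor 2 is listed at 0, and tumor 10 stood far above the next tumor, which was at 8.72. S100a6 was 1.59 higher in tumors on the log2 scale (standard error 0.49, limma, adjusted p = 0.0250). Livers 2, 3 and 6 were at 0.940, 0 and 0.792, below the filter value of 1. S100a6 therefore passed the filter mainly through tumors, and the filter itself favored a call. This call was the least firm of the 5. It was lost when liver 2, liver 3 or liver 6 was left out, at log2 differences of 1.58, 1.39 and 1.58 (limma, adjusted p = 0.0506, 0.0765 and 0.0507), and with a pseudocount of 0.1 (2.29, limma, adjusted p = 0.0760). Without tumor 2 it was firmer, at 1.89 (limma, adjusted p = 0.00231).

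S100a10 (p11), the small subunit of the annexin A2 tetramer, had the highest mean of the 10 genes in livers. It lies beside S100a11 on chromosome 3, from 93555117 to 93564645. Livers ran from 13.1 to 82.7 with a median of 34.6, and tumors from 20.6 to 123 with a median of 67.6. Liver 1 lay above 7 of the 12 tumors, and 5 tumors exceeded every liver. The log2 fold change of 0.87 did not pass the threshold (standard error 0.37, limma, adjusted p = 0.110, exact permutation p = 0.0481). It passed without liver 1 (1.11, limma, adjusted p = 0.0384), without tumor 2 (1.04, limma, adjusted p = 0.0233) and without both (1.26, limma, adjusted p = 0.00585).

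Anxa1, a glucocorticoid-induced annexin that signals through formyl peptide receptors, was at 1.58 to 2.95 in livers and at 0 to 5.48 in tumors. Its highest tumor was tumor 6, and 7 of 12 tumors exceeded every liver. Anxa3 ran from 0.933 to 2.95 in livers and from 0 to 5.24 in tumors, with 5 of 12 tumors above every liver. Their log2 fold changes were 0.26 and 0.33 (standard errors 0.27 and 0.29, limma, adjusted p = 0.581 and 0.488). Both lay between deposited values of 0 and 6, where rounding to whole numbers is coarse. With liver 1 and tumor 2 left out they passed the threshold, at 0.52 and 0.62 (limma, adjusted p = 0.0346 and 0.0384), as they did with sample quality weights.

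S100a4 (metastasin), a gene of fibroblasts and myeloid cells, was above 0 in 9 of 12 tumors, up to a scaled value of 4.36 in tumor 10, and in 1 of 6 livers, at 0.792. It was not tested after the filter, and the exact permutation test gave a difference of 0.75 on the log2 scale (p = 0.0207, not adjusted). Without the filter on low values limma gave the same difference with an adjusted p of 0.0769. Without tumor 2 S100a4 came through the filter and was called, at 0.89 (limma, adjusted p = 0.0315), and without both liver 1 and tumor 2 it was at 0.85 (limma, adjusted p = 0.0511). In livers S100a4 was at 0.792 or lower, below the filter value of 1. It therefore came through by its tumor values alone, and the filter itself favored a call. Anxa13, an annexin of gut and kidney epithelium, was above 0 in 6 of 12 tumors, up to 2.01 in tumor 4, and in liver 1 at 0.738, with an exact permutation p of 0.153 for a difference of 0.42. Anxa13 was at 0 in tumor 10, where 6 of the other 9 genes had their highest value.

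By mean level, which TPM allow to be compared between genes, the order in livers was S100a10 at 43.0 ± 25.2, Anxa5 at 15.8 ± 4.67, Lgals1 at 8.76 ± 2.24, Anxa2 at 6.81 ± 5.58 and S100a11 at 6.43 ± 3.93 (SD, n = 6 each). In tumors it was Anxa5 at 81.0 ± 35.2, S100a10 at 76.6 ± 34.7, S100a11 at 74.9 ± 32.6, Anxa2 at 70.5 ± 46.5 and Lgals1 at 42.8 ± 20.7 (SD, n = 12 each). In livers the ranges of Anxa5 (11.2 to 22.9) and Lgals1 (5.60 to 11.1) do not overlap, while all other neighbors in this order overlap, as all neighbors do in tumors. The other 5 genes were below 8 on average in both groups.

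**Figure D2:**
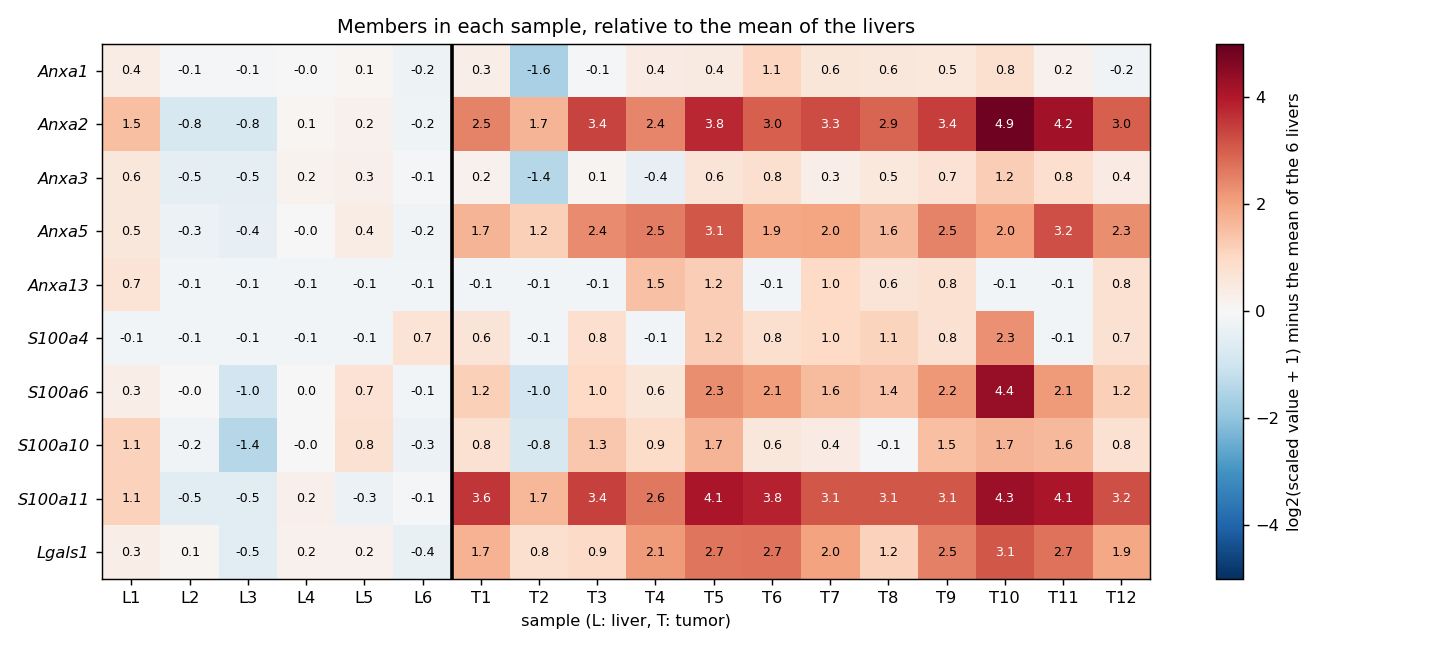
Each cell gives log2 of the scaled value plus 1 in 1 sample minus the mean of the 6 livers, for 10 genes (vertical axis) in livers L1 to L6 and tumors T1 to T12 (horizontal axis). Anxa2, Anxa5, S100a11 and Lgals1 are above 0 in all tumors, T10 is the highest tumor in 6 genes, and T2 is below the liver mean in Anxa1, Anxa3, S100a6 and S100a10 and, where it is listed at 0, in Anxa13 and S100a4.

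The unequal change of the 2 subunits of the annexin A2 tetramer can be read without any scaling, as the ratio of S100a10 to Anxa2 within a sample. This ratio was chosen after the values had been seen. Livers held 4.67 to 11.7 times as much S100a10 as Anxa2 transcript, with a median of 6.17, and tumors 0.630 to 2.03 times as much, with a median of 1.16. All 12 tumors lay below all 6 livers, liver 1 and tumor 2 lay within their groups, and 4 tumors had less S100a10 than Anxa2. On the log2 scale with a pseudocount of 1 the ratio averaged 2.53 ± 0.49 (SD, n = 6) in livers and 0.18 ± 0.51 (SD, n = 12) in tumors, and fell by 2.34 (exact permutation p = 5.39e-05, the smallest possible). It fell by 2.51 in E19 samples and by 2.28 in E20 samples. A change of the ratio shows that the 2 transcripts changed unequally, not which of them did.

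**Figure D3:**
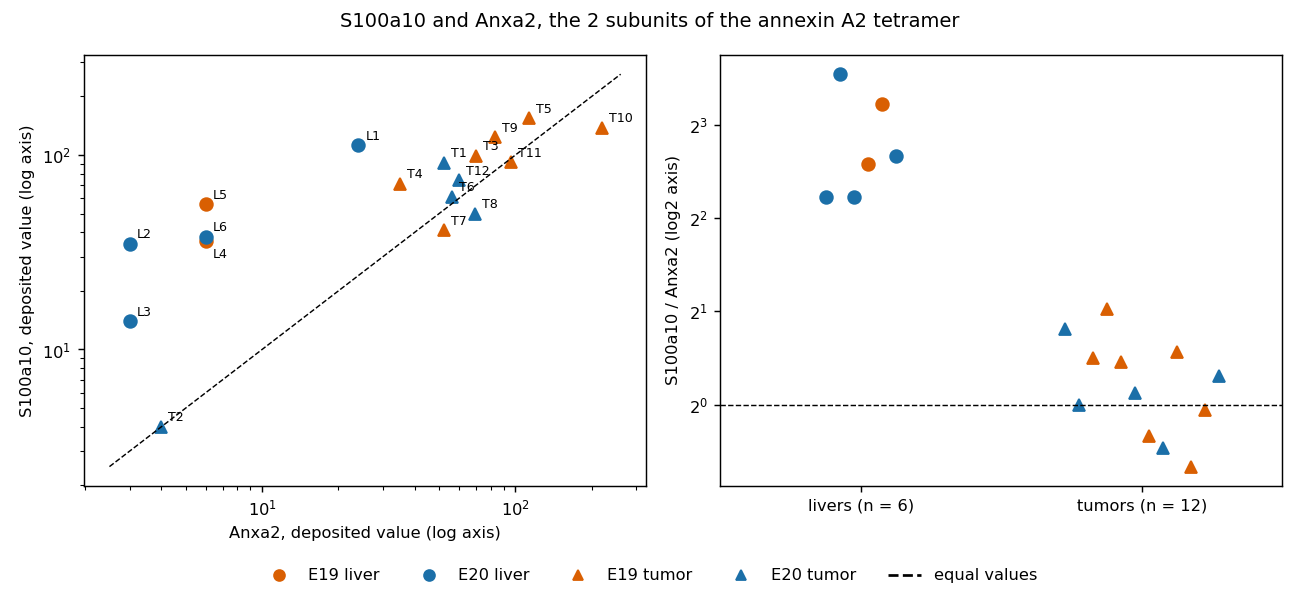
Left, deposited values of Anxa2 (horizontal) and S100a10 (vertical) in each sample, both on log axes. Right, their ratio by group on a log2 axis, with circles for livers, triangles for tumors and a dashed line at equal values. Livers lie at ratios of 4.67 and above, tumors at 2.03 and below.

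The 4 genes without overlap passed the threshold within each tag. In E19 samples alone, Anxa2, S100a11, Anxa5 and Lgals1 had log2 fold changes of 3.52, 3.61, 2.42 and 2.14, and in E20 samples alone 2.69, 3.06, 1.84 and 1.77, each past the threshold in its own limma fit (adjusted p from 0.000649 to 0.0137 in E19 and from 0.00536 to 0.0228 in E20). S100a6 lost its call in E19 samples (limma, adjusted p = 0.166) and was not tested in E20 samples after the filter. In a limma fit with an interaction term, none of the 8 genes was called as differing between tags in its tumor-liver difference. With 2 E19 livers and standard errors from 0.44 for Anxa5 to 0.97 for S100a6, that fit could miss such a difference. The differences between tags ran from -0.78 for Anxa2 to -0.07 for Anxa3 on the log2 scale. All had an adjusted p of at least 0.9685 and none an unadjusted p under 0.05 in that limma fit. Among tumors, E19 samples had the higher mean log2 value in each of the 10 genes. For S100a10 the means were 6.56 in E19 and 5.49 in E20, and for Anxa2 6.35 and 5.34. Tumor 2 is an E20 sample, and this was not tested. The correlations across 12 tumors hold both tags.

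Outside the 10 genes, 27 other annexin, S100 and galectin genes are in the table and 14 of them were tested. Of these, 2 rose and 4 fell, against 9.70% and 9.28% of all genes tested, with a median log2 fold change of -0.08. Whether they differ from the 10 genes was not tested. Anxa9, which has lost its calcium sites, rose by 1.03 and Anxa4, an epithelial annexin, by 0.68 (standard errors 0.27 and 0.17, limma, adjusted p = 0.0109 and 0.00620). Anxa9 lay near the floor, with 2 of 6 livers above 0, up to a scaled value of 1.48, against 0.793 to 5.16 in tumors. It passed the filter mainly through tumors, and its highest tumor value is a deposited value of 1 in tumor 2. S100a1, the S100 protein of heart and muscle, fell by 1.29 on the log2 scale (standard error 0.28, limma, adjusted p = 0.00230), from a mean of 97.4 in livers to 41.1 in tumors. Anxa11 fell by 0.73 and Anxa6 fell by 0.64 (limma, adjusted p = 0.0209 and 0.0202). S100a13 fell by 0.47 with a p close to the threshold (limma, adjusted p = 0.0489), and it was called in 9 of 33 fits. Of these calls, S100a1 and, at its low values, Anxa9 held in both scalings and without scaling. Those of Anxa4, Anxa6, Anxa11 and S100a13 were lost without scaling between samples. Lgals3 and Lgals9, the other galectins with tested levels above 10, differed by 0.31 and -0.29 on the log2 scale (limma, adjusted p = 0.670 and 0.429), and Lgals8 one of 0.00 (adjusted p = 0.989 in the same limma fit).

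Neighbors on a chromosome did not all move one way. Most S100 genes lie in 1 cluster on chromosome 3, where S100a1 (from 90511034) fell and S100a6 (from 90612894) rose. Between them, S100a13 (from 90514233) fell, though it was called in only 9 of 33 fits. S100a16 (from 90537254) differed by 0.09 on the log2 scale (limma, adjusted p = 0.884). S100a3, S100a5, S100a7a and S100a14 in that cluster are listed at 0 in every sample. S100a11 and S100a10 lie apart from it, from 93520496 and 93555117, and of these neighbors S100a11 rose while S100a10 did not pass the threshold.

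**Figure D4:**
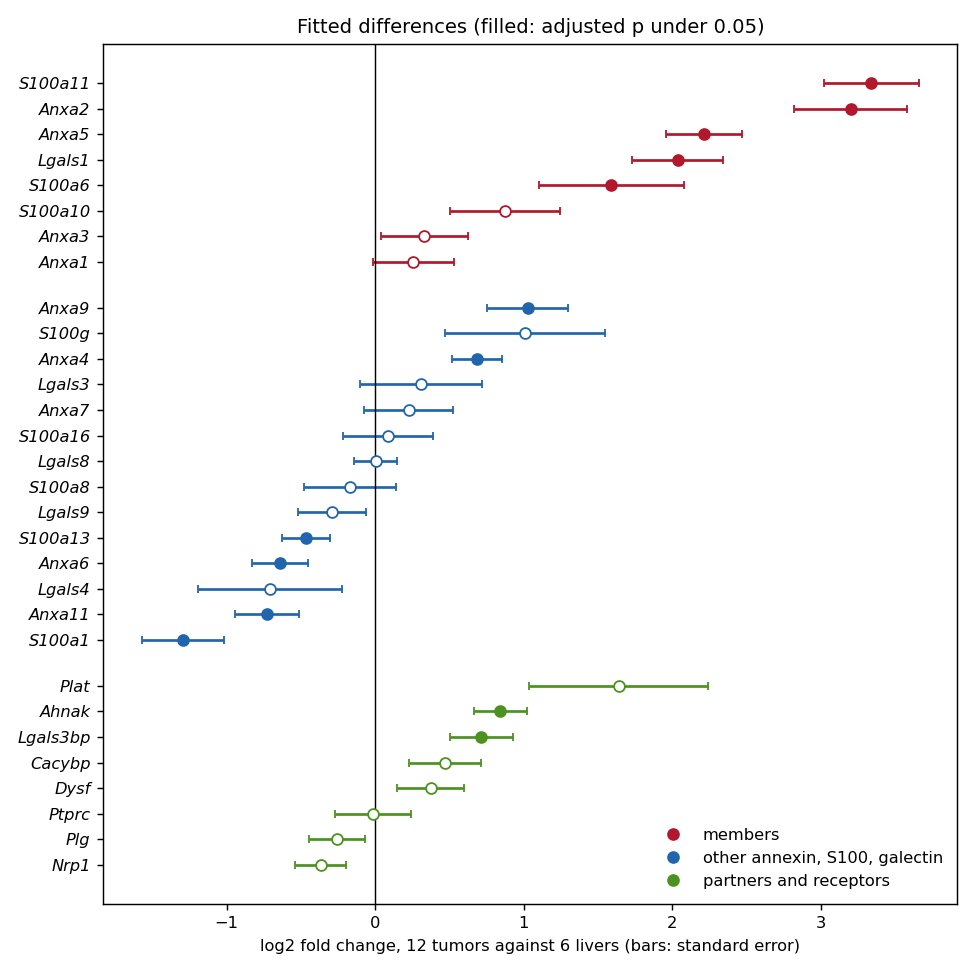
Log2 fold changes of 12 tumors against 6 livers (horizontal axis) with their standard errors for the 8 tested members, 14 other annexin, S100 and galectin genes and 8 partner or receptor genes. Filled points have an adjusted p under 0.05. The members lie between 0.26 and 3.34, the other family genes on both sides of 0.

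Of 13 genes for known partners and receptors, 8 were tested and 2 rose, against 9.70% of all genes tested. Ahnak, a very large scaffold protein that binds the annexin A2 tetramer, rose by 0.84 and Lgals3bp, a secreted glycoprotein that galectins bind, rose by 0.71 (standard errors 0.18 and 0.21, limma, adjusted p = 0.00218 and 0.0218). The call of Lgals3bp was lost when liver 2, 3 or 5 was left out, and both calls were lost without scaling. Plasminogen (Plg), which the tetramer binds, averaged 558 in tumors and 649 in livers (a log2 difference of -0.26, adjusted p = 0.389 by limma). Its activator Plat, listed at 0 in all livers, was above 0 in 10 of 12 tumors, up to 56.7 with a median of 1.31. Plat passed the filter through tumors alone, and the difference was short of the threshold (limma, adjusted p = 0.0621). Cacybp, which binds S100a6, differed by 0.47 (limma, adjusted p = 0.201). The receptors Fpr1, Fpr2, Tlr4 and Ager, through which Anxa1 and secreted S100 proteins can act, were at 2.38 or lower in all samples and not tested.

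Markers of other cell types were set beside these genes, since several of the 10 are transcribed in stromal, bile duct and immune cells. Among 50 such markers, 32 were tested. Of these, 7 rose and 6 fell, against 9.70% and 9.28% of all genes tested. For fibroblasts and stellate cells, 3 of 11 rose, the collagens Col1a1, Col1a2 and Col3a1 (Col1a1 by 2.14, limma, adjusted p = 0.00263), and 4 fell, Dcn, Lrat, Pdgfra and Des. Their summed scaled value was 57.6 to 85.1 in livers and 39.3 to 154 in tumors. Among bile duct markers, Spp1 rose by 4.45 (limma, adjusted p = 4.26e-07). The bile duct sum was 13.99 to 23.6 in livers and 63.8 to 928 in tumors, nearly all of it Spp1, while the defining markers Krt7, Krt19 and Epcam were at 1.83 or lower in all samples and Cftr is listed at 0 throughout. For macrophages, none of 10 rose (0 by limma, 0 at an unadjusted p under 0.05) and 2 fell, the Kupffer cell markers Clec4f and Marco, with sums of 102 to 330 in livers and 48.4 to 257 in tumors. For endothelium, Pecam1 and Cdh5 rose out of 8, with sums of 25.1 to 72.8 in livers and 21.8 to 211 in tumors. Granulocyte, monocyte and lymphocyte markers were too low to be tested, with highest sums of 4.36 and 10.5, both in tumor 10. The part of these cells in the differences of the 10 genes was not tested.

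Across the 12 tumors, several of the 10 genes varied together. Pearson's r of the log2 values was computed for all 45 pairs, with p from 100000 permutations and Benjamini-Hochberg adjustment over the 45. At an adjusted p under 0.05, 21 pairs were correlated, all positively. This count rests on tumor 2, which is lowest in all 10 genes: without it 5 pairs remained past the threshold. All 5 are among Anxa2, Anxa3, S100a6 and S100a11.

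Anxa3 and S100a6 had the highest r, 0.917 (permutation p = 1e-05, the smallest possible, adjusted p = 0.00045), with a Spearman's rho of 0.902 (permutation p = 0.00013, adjusted p = 0.00585). Without the 2 tumors farthest from the median of S100a6, tumors 2 and 10, r was 0.907. Anxa2 and S100a6 had an r of 0.909 (permutation p = 0.00016, adjusted p = 0.00255) and a rho of 0.846 (permutation p = 0.00111, adjusted p = 0.0213), and an r of 0.713 without tumors 2 and 10. For Anxa3 with S100a11 r was 0.898, for S100a6 with S100a11 0.859 and for Anxa2 with Anxa3 0.839 (adjusted permutation p = 0.00255, 0.00443 and 0.00443). In these 5 pairs r was 0.745 to 0.878 without tumor 2 and 0.767 to 0.940 in the 7 E19 tumors alone, where none of the 45 pairs passed the threshold (0 called, 8 at an unadjusted p under 0.05). The 5 E20 tumors are too few for a correlation. Anxa5 went with S100a10 (r = 0.824, adjusted permutation p = 0.0054) more than with Anxa2 (0.585), though the difference between these correlations was not tested. Without tumor 2 they were 0.737, no longer past the threshold (adjusted permutation p = 0.0530), and 0.400. Without tumor 10 they lay closer, at 0.908 and 0.824, and in E19 tumors alone they were 0.540 and 0.056. Tumors 11 and 12, of 1 mouse, were averaged as an alternative, which gave 24 pairs.

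**Figure D5:**
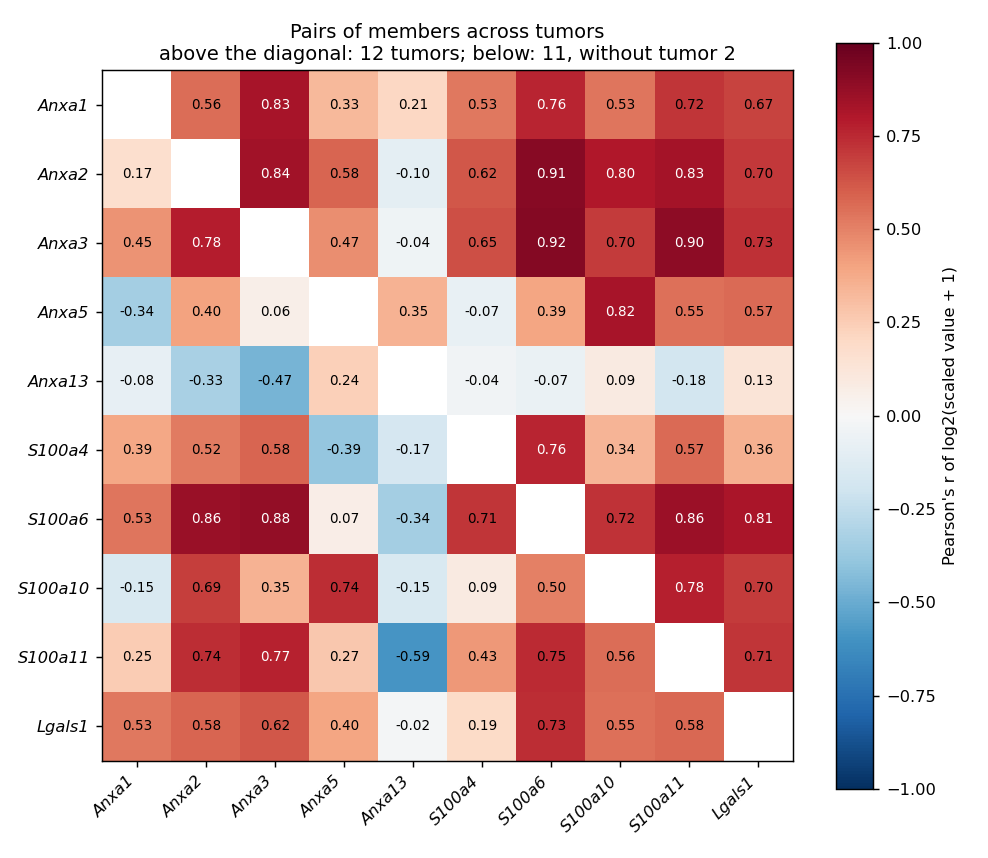
Pearson's r of log2 values between each pair of the 10 genes, above the diagonal across 12 tumors and below it across 11 tumors without tumor 2. Anxa2, Anxa3, S100a6 and S100a11 have r of 0.738 or more with each other on both sides, and many other pairs are weaker below the diagonal than above it.

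Tumor 10 stood out among tumors, with the highest value in Anxa2, Anxa3, S100a4, S100a6, S100a11 and Lgals1. Its macrophage sum of 257, its granulocyte and monocyte sum of 4.36 and its lymphocyte sum of 10.5 were also the highest of the tumors, and its hepatocyte sum of 33715 and endothelial sum of 21.8 the lowest. Their part in its high values was not tested. Without tumor 10 the log2 fold changes of Anxa2, S100a11, Lgals1 and S100a6 were 3.05, 3.25, 1.94 and 1.33, all still called (limma, adjusted p from 3.29e-07 to 0.0178).

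Over the 10 genes with 7 marker sums and Met, 80 correlations across tumors were computed in the same way. Of these, 16 passed the threshold, 10 positive and 6 negative, and 5 without tumor 2. S100a4 went with the macrophage sum (r = 0.769, permutation p = 0.00301, adjusted p = 0.0229, rho = 0.859) and with the granulocyte and monocyte sum (r = 0.784, adjusted permutation p = 0.0250), and Anxa1 with the fibroblast and stellate sum (r = 0.690, adjusted permutation p = 0.0383). Without tumor 2 these had r of 0.738, 0.802 and 0.813, with adjusted permutation p of 0.0762, 0.0486 and 0.0486. Anxa3, S100a11, S100a6 and S100a10 also passed with the granulocyte and monocyte sum (r = 0.823, 0.808, 0.801 and 0.721). They did not pass without tumor 2 (adjusted permutation p from 0.179 to 0.415). That sum and S100a4 were each at most 4.36 in tumors, near the floor of the table. The endothelial sum went the other way and gave all 6 negative calls. Its r was -0.948 for S100a6 (permutation p = 0.00015, adjusted p = 0.0038, rho = -0.895), -0.907 for Anxa3, -0.893 for Anxa2, -0.888 for S100a11, -0.810 for S100a10 and -0.758 for Lgals1. That sum is led by Lyve1, Clec4g and Stab2 of sinusoidal endothelium and was 211 in tumor 2, against 21.8 in tumor 10. Without tumor 2 S100a6, Anxa2 and S100a11 were at -0.934, -0.879 and -0.745, still past the threshold (adjusted permutation p = 0.0232, 0.0272 and 0.0486). Anxa3, S100a10 and Lgals1 then lost it, at -0.750, -0.604 and -0.664 (adjusted permutation p = 0.0811, 0.190 and 0.130). Without scaling r for S100a6, Anxa2 and S100a11 was -0.32, -0.14 and 0.10 with tumor 2 and -0.66, -0.73 and -0.32 without it. In the latter setting none of the 80 passed the threshold (0 called, 16 at an unadjusted p under 0.05). None of the 10 genes was correlated with Met at the threshold, with r from -0.379 for S100a4 to 0.112 for Lgals1 (0 called, 0 at an unadjusted p under 0.05).

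The genes most like Anxa5 across the 12 tumors, out of 5652 with a mean log2 value of at least 3, were Twf1 (r = 0.955), Fbxo6 (r = 0.929) and Ttc1 (r = 0.920). For S100a10 they were Mtmr2 (r = 0.954), Wtap (r = 0.945) and Eif2s1 (r = 0.944). These are descriptions, picked as the highest of many values. Twf1 and Fbxo6 were higher in tumors by 0.81 and 1.15 (limma, adjusted p = 0.00788 and 0.00714), while Ttc1, Mtmr2, Wtap and Eif2s1 stayed short of the threshold (limma, adjusted p from 0.122 to 0.827).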

How the data were processed

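The deposited file holds 1 value per gene in each of 18 samples, a score in whole numbers, which was read as TPM rounded by the authors. Of 900 unrounded TPM values that the study lists for 50 genes, 882 lie within 0.5 of it. Per the study's methods, the authors selected poly-A RNA for paired-end sequencing and quantified genes on GRCm38 with Salmon. The submitters' processing notes also name edgeR, without its role, and it was not used here. The table has 28442 genes, and 8 of its lines had to be repaired for a surplus separator.

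The 10 genes and all gene lists (other family genes, partners and receptors, markers) were chosen with earlier results of these data known. TMM factors (30% of M and 5% of A trimmed, unweighted) scaled the samples. Genes needed a scaled value of 1 in 6 samples. A pseudocount of 1 was added before taking log2, and R 4.3.3 with limma 3.58.1 (trended prior variance) gave p-values, Benjamini-Hochberg adjusted over all genes tested (threshold 0.05). On simulated data without change the fit called 0 of 11435 genes. Of 200 genes changed by 1 on the log2 scale it called 127, and of 200 changed by 2 it called 193. Permutation tests, exact for groups and with 100000 draws for correlations, all two-sided, used Python 3.11.15 and scipy 1.17.1. Positions and promoters are from RefSeq (GRCm38.p6), matched by Entrez identifier.

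Genes named beyond the 10 are family and partner genes past the threshold, up to 3 markers with the highest mean per list, markers past the threshold, Met and the 3 genes most alike Anxa5 and S100a10, the members with the highest means in tumors. Siglece, other partners, other tested galectins, genes of the S100 cluster and defining markers were added after their values were seen. Alternatives covered scaling, filter, pseudocount, tag, age, sample weights, the average of 2 tumors of 1 mouse, a block by sample number and each sample left out. Leaving out liver 1 and tumor 2 together, dropping scaling and tumor 2 from correlations, and all alternatives for the S100a10 to Anxa2 ratio were chosen after seeing the data. One marker is not reported here.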

Additional observations from a re-analysis of the deposited data

Results flagged for a closer look

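Among 27 results looked at over the 6 livers (the 10 genes, the called family and partner genes, Met, the 7 marker sums and the S100a10 to Anxa2 ratio), 5 had 1 liver far from the other 5, where chance gives about 1.35. For each, the distance of the outermost liver from its neighbor was taken as a share of the whole range (Dixon's ratio, critical value 0.625 for 6 samples). Liver 1 was that sample in 3 of the 5. For Anxa2 the ratio was 0.737, with a scaled value of 17.7 in liver 1 and 6.72 in the next liver. S100a11 gave 0.678, with 14.02 in liver 1 and 7.05 in the next. Anxa13 gave 1.0, with 0.738 in liver 1, which is a deposited value of 1, and 0 in the others. S100a4 gave 1.0 as well, with 0.792 in liver 6 and 0 in the others. With 1 liver above 0 the ratio can only be 1.0. The flags of Anxa13 and S100a4 were therefore fixed, and the number given by chance does not apply to them. The summed macrophage markers gave 0.646, with 330 in liver 5 and 183 in the next liver. Without liver 1 the log2 fold changes of Anxa2 and S100a11 were 3.51 and 3.57 (limma, adjusted p = 9.75e-07 and 1.18e-07).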

How the results depend on the processing

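Anxa2, S100a11, Anxa5, Lgals1 and Met kept their direction and their call in all 33 fits across genes, with log2 fold changes of 2.58 to 3.66, 2.74 to 3.74, 1.84 to 2.46, 1.68 to 2.23 and 2.03 to 2.59. S100a6 was called in 25 of 32 fits. Against 5 of the 10 genes called, sample quality weights gave 8 and leaving out liver 1 and tumor 2 together gave 8, and leaving out 1 sample gave 4 to 7, the 7 without tumor 2. These 7 include S100a4, which passed the filter there only through tumors. The cause of these shifts was not tested. Against 2222 genes called in all, the count was 1341 without scaling, 1329 in E19 samples, 404 in E20 samples, 4703 with sample weights and 3695 without liver 1 and tumor 2, and 1649 to 3201 with 1 sample left out, the 3201 without tumor 2. The other family genes called, 6, became 2 without scaling and 2 in E20 samples, and 3 to 6 with 1 sample left out, 3 of them without liver 4 or liver 6. Partner genes called, 2, became 1 without scaling, 1 in E19 samples, 0 in E20 samples (with 2 at an unadjusted p under 0.05), 5 with sample weights and 4 without liver 1 and tumor 2, and 1 to 4 with 1 sample left out, 1 without liver 2, 3 or 5 and 4 without tumor 2. Markers of other cell types called, 13, became 4 in E19 samples and 4 in E20 samples, and 9 to 15 with 1 sample left out.

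Correlated pairs, 21, became 11 by Spearman's rho, 0 in E19 tumors, 7 without scaling and tumor 2 and 5 to 24 with 1 tumor left out. Correlations with markers, 16, became 4 by rho, 26 without scaling, 10 with a pseudocount of 0.1, 1 in E19 tumors, 0 without scaling and tumor 2 and 5 to 24 with 1 tumor left out, 8, 9 and 7 of them without tumors 4, 5 and 10. The log2 ratio of S100a10 to Anxa2 lay between -2.47 and -2.21 in the difference of tumors from livers with 1 sample left out. Without the filter on low values, 9 genes differed between tags, none of them among the 10.

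Livers and tumors 1 to 6 share numbers but come from different mice. Their deviations had a mean r of 0.173 over 6 same-numbered pairs (from -0.137 to 0.432) and of -0.039 over the 30 other pairs. Of 12 samples, 5 were most like their own number, and whether the numbers pair samples was not tested. With the number as a replicate block, 1369 genes, 4 of the 10 genes, 3 other family genes and 1 partner gene were called, and without the block in the same 12 samples 1214, 4, 3 and 1. The S100a10 to Anxa2 ratio fell by 2.05 with the block (exact permutation p = 0.0312, the smallest that 6 pairs allow). Tumor 2's coarse values and rounding limit the low genes Anxa1, Anxa3, Anxa13, S100a4 and S100a6 most.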
